A study of Mus musculus with 8 samples.

Results

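The genes described here are 45 genes of DNA replication and cell division, taken by symbol from the 35583 genes of a count table. All 45 were found. By known function, 12 act in DNA replication, 31 act in mitosis and its preparation, and 2, Stmn1 and Hmgb2, belong to neither class. The RNA came from microglia, the resident macrophages of the brain, sorted from the hypothalamus of young mice labelled as wild-type, taken 20 hours after an injection of plasma protein that carried a dye. Microglia that carried the dye (plasma-positive) were sequenced as 4 libraries and microglia that did not (plasma-negative) as 4, numbered 1 to 4 in each group. Both groups received the injection, and no uninjected group is in the data. The labels do not say whether libraries came from separate animals, so the p-values measure the spread between these libraries.

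A dividing cell first copies its DNA and then separates the copies. The helicase made of Mcm proteins opens the DNA for replication, the sliding clamp Pcna holds the polymerase on it, and enzymes such as ribonucleotide reductase supply the nucleotides. Entry into mitosis is driven by Cdk1 with its B-type cyclins, and the later steps by kinases, the kinetochore, the spindle and the machinery of cytokinesis, whose genes are switched on together late in the cycle. Most microglia of the adult brain are not dividing, and their number is kept up by slow self-renewal.

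Of the mitotic genes, 5 were higher in plasma-positive libraries, and no replication gene passed the test. Ccnb2, Cenpa, Cdc20, Top2a and Hmmr had at most 2 counts in any plasma-negative library and between 14 and 370 counts in every plasma-positive one. Of the 13277 genes that passed the filter on low counts and were tested, 1.41% were called, 0.844% higher and 0.565% lower (edgeR's quasi-likelihood test, Benjamini-Hochberg adjusted p under 0.05). Among the 45 members 35 were tested, all 12 replication genes, 21 mitotic genes and Stmn1 and Hmgb2, and 5 were called higher and 0 lower. At an unadjusted p under 0.05, edgeR gave 11 members higher, against 7.13% of tested genes, and 0 lower, against 6.67%. DESeq2 called 7 members higher, against 2.5% of tested genes, and 0 lower. A mitotic gene that is near 0 in plasma-negative libraries could pass the filter only through the plasma-positive ones, so the count among the tested mitotic genes is not read further. When all 31 mitotic genes were fitted with no filter, the same 5 were called, against 0.524% of the 19844 genes with any count. In bulk RNA, more cells of a dividing kind and more of these transcripts per cell cannot be told apart. Plasma-positive replicate 3, the highest library in all 5 called genes, held 1008 CPM of monocyte and neutrophil genes, against at most 13.8 CPM in each other library. In plasma-positive replicates 1 and 2, neuron and oligodendrocyte precursor genes were above any plasma-negative library. The part of these transcripts in the mitotic values was not tested.

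**Figure D1:**
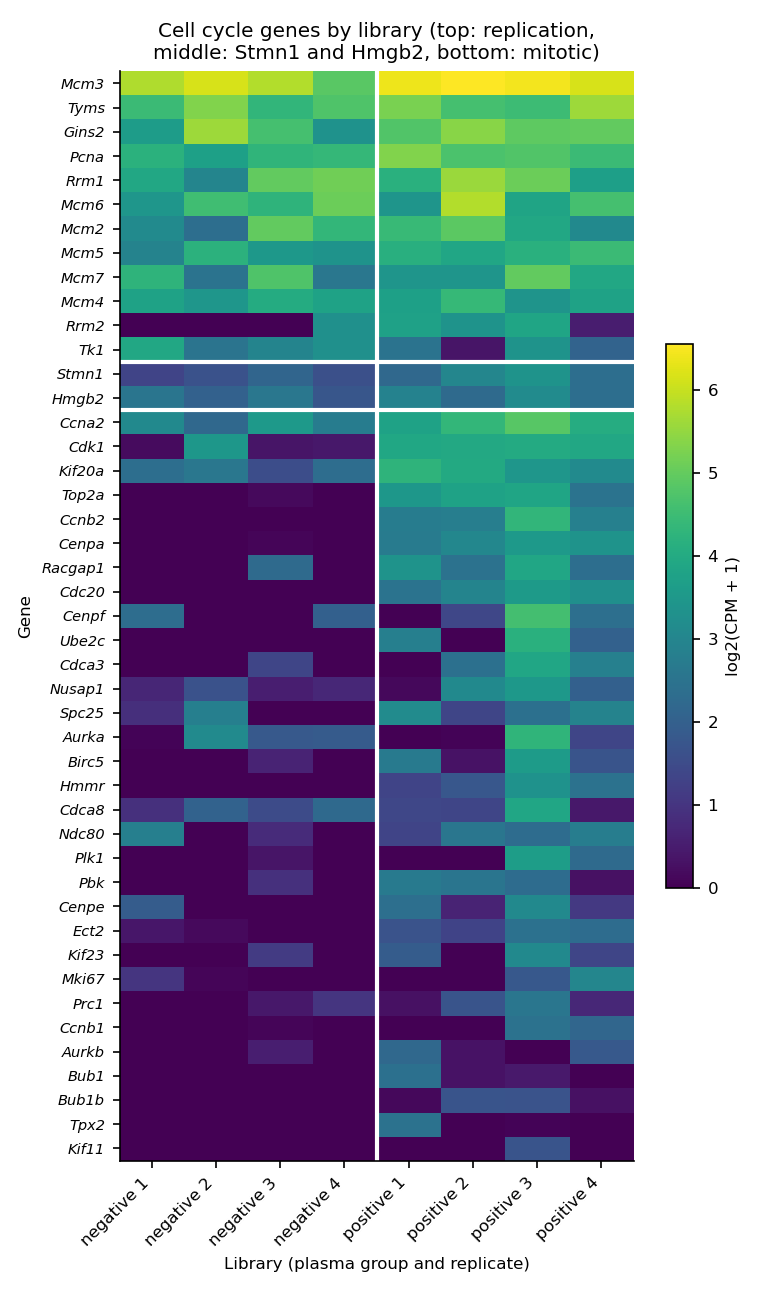
Level of each of the 45 genes in each of the 8 libraries, as log2 of CPM (scaled counts) plus 1; columns are libraries, rows are genes ordered within class by mean level. The replication genes at the top are coloured in both groups, while most mitotic genes at the bottom are near 0 in the 4 plasma-negative columns and above it in several plasma-positive ones.

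Ccnb2 encodes cyclin B2, a partner of Cdk1 at the entry into mitosis, and lies on chromosome 9 from 70407692 to 70421547 (build mm10, minus strand). It had 0 counts in all 4 plasma-negative libraries. The plasma-positive libraries 1 to 4 held 52, 118, 370 and 56 counts, or 5.72, 5.999, 18.8 and 6.26 CPM (CPM are counts relative to the library total, scaled with TMM factors). Replicate 3 was about as high as the other 3 plasma-positive libraries together. The mean of 9.19 ± 6.40 CPM (SD, n = 4) was at least 9.10-fold higher than the limit of detection (edgeR adjusted p = 0.0109). That limit is 3 counts in the shallowest plasma-negative library, replicate 4, where they equal 1.01 CPM.

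Cdc20 encodes the activator of the anaphase-promoting complex, the ubiquitin ligase that lets sister chromatids part (chromosome 4, 118432901 to 118437352). It too had 0 counts in every plasma-negative library. In plasma-positive libraries 1 to 4 it stood at 4.62, 6.76, 11.01 and 8.602 CPM, from 42, 133, 217 and 77 counts. Its mean of 7.75 ± 2.72 CPM (SD, n = 4) was at least 7.68-fold higher (edgeR adjusted p = 0.0109).

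Cenpa encodes the histone H3 variant that marks the centromere (chromosome 5, 30666777 to 30674830). Among the plasma-negative libraries only replicate 3 held a count of it, and that was 1. The plasma-positive values were 5.61, 7.17, 10.6 and 9.38 CPM, from 51, 141, 209 and 84 counts. This was the most even of the 5 genes across plasma-positive libraries, with a mean of 8.19 ± 2.23 CPM (SD, n = 4) that was at least 8.12-fold higher (adjusted p = 0.00647 by edgeR).

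Top2a encodes topoisomerase II alpha, which untangles DNA before and during chromosome segregation (chromosome 11, 98992943 to 99024189). Plasma-negative replicate 3 held 2 counts and the other plasma-negative libraries 0. The plasma-positive libraries held 91, 250, 267 and 42 counts, or 10.0, 12.7, 13.6 and 4.69 CPM. Here replicate 4 was the lowest, unlike in Ccnb2. The mean of 10.2 ± 4.00 CPM (SD, n = 4) was at least 10.1-fold higher (edgeR adjusted p = 0.00801).

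Hmmr encodes a hyaluronan-binding protein that also sits on the mitotic spindle (chromosome 11, 40701395 to 40733422). Not 1 read of it was counted in the plasma-negative group, and the plasma-positive libraries held 14, 48, 179 and 41. Its values there of 1.54, 2.44, 9.09 and 4.58 CPM were the most uneven of the 5 relative to their mean of 4.41 ± 3.37 CPM (SD, n = 4). The lower bound of its fold was 4.37 (edgeR adjusted p = 0.0313). Hmmr was also called by DESeq2 and under other scalings and filters. It was not called by limma, after thinning to equal depth, with exon length corrected, or with the replicate number as a block. When single libraries were omitted in turn, Hmmr kept its call in 1 of 8 fits, the one without plasma-negative replicate 4. Cenpa, Cdc20 and Top2a were called in all 8 of these fits and Ccnb2 in 7, with an adjusted p of 0.0508 without plasma-positive replicate 3. In that fit 3 members were called, against 0.434% of genes called higher.

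**Figure D2:**
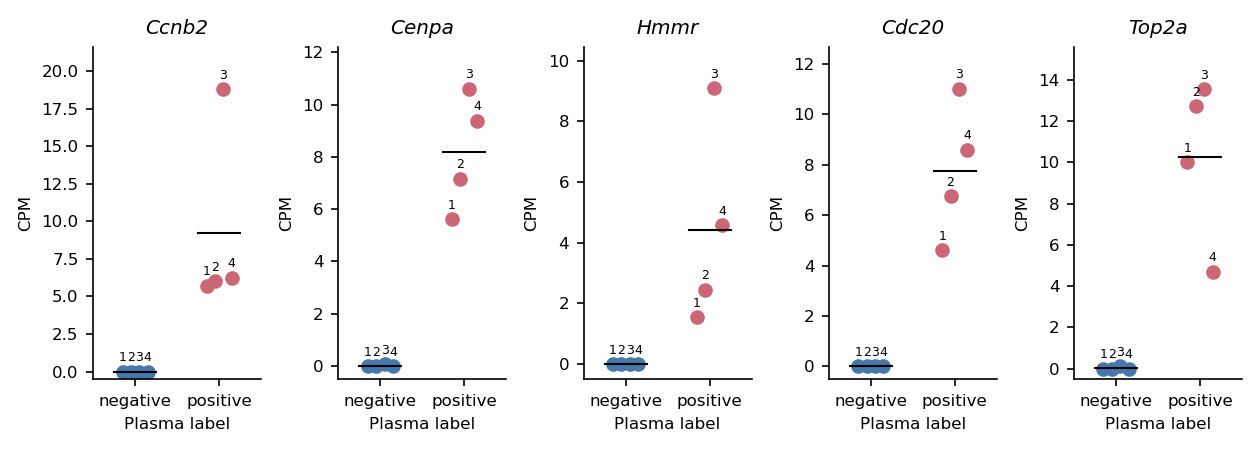
CPM of the 5 called mitotic genes in each library; points are libraries numbered by replicate, horizontal lines are group means, and each panel has its own scale. All plasma-negative points lie at or near 0 and no plasma-positive point does, with replicate 3 the highest in each gene.

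Genes of mitosis often carry CCAAT boxes, bound by the factor NF-Y, and a cell cycle homology region (CHR) in their promoters, while replication genes often carry E2F sites. The promoters of 4 of the 5 called genes and of 1 replication gene show these letters (RefSeq, build GRCm38.p6, all on the minus strand, printed 5′ to 3′ up to the base before the transcription start or shortly before it). Capitals mark matches to CCAAT, to the CHR letters TTTGAA or TTCGAA or TTTAAA, and to the E2F letters TTTCCCGC, TTTCGCGC, TTTGCCGC or TTTGGCGC, each on either strand, so that ATTGG is CCAAT read on the other strand. Where matches overlap, as in Mcm6, 1 run of capitals covers them. Mcm6, a subunit of the replicative helicase, is shown as the example of E2F letters and was chosen after its matches were seen.
Ccnb2, chr9:70421555-70421734: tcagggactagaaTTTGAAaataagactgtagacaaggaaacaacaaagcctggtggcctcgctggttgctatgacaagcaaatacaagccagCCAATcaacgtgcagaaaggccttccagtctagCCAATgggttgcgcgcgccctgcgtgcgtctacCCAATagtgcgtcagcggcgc
Cdc20, chr4:118437353-118437523: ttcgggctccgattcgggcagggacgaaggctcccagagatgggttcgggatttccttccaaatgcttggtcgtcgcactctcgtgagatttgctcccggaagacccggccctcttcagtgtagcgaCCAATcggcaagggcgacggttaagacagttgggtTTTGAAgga
Top2a, chr11:99024190-99024369: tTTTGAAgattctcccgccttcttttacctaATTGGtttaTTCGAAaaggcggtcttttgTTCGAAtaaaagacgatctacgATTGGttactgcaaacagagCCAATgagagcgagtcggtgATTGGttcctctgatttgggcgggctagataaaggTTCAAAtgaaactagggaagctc
Hmmr, chr11:40733438-40733617: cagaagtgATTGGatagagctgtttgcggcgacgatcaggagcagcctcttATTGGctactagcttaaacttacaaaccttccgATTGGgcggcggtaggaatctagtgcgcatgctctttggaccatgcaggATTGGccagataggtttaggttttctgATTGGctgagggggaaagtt
Mcm6, chr1:128359706-128359885: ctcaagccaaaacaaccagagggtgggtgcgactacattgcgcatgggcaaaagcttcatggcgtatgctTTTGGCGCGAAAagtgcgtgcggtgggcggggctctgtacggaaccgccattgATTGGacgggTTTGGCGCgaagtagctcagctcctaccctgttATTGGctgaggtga

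In the 250 bases before the RefSeq start, all 5 called genes held CCAAT letters and 4 held CHR letters, the exception being Hmmr. The RefSeq start of Cenpa, at 30666886, lies inside the gene span given above, so its matches lie within that span. For Mcm7, Cdca8, Cdca3 and some other members the RefSeq start also lies inside the gene span. Promoters were given for 37 of the 45 members. CCAAT was found in 25 of 28 promoters of mitotic genes (89.3%) and in 9 of 11 promoters of replication genes (81.8%), against 33.9% of all 32851 mouse promoters and 35.1% of those of tested genes. The CHR letters were in 57.1% of the mitotic and 36.4% of the replication promoters, against 26.2% of all promoters and 19.4% of those of tested genes. For TTTGAA alone the mitotic share was 35.7% and the replication share 9.09%, against 16.0% of all promoters and 10.9% of those of tested genes. The E2F letters were in 1 of the 28 mitotic promoters, that of Cdk1, and in 3 of the 11 replication promoters, those of Mcm5, Mcm6 and Mcm7, against 1.86% of all promoters and 3.26% of those of tested genes. The mitotic share, 3.57%, was near that of tested genes. These are matches of letters, not measured binding, and the called mitotic genes share them with mitotic genes that were not called.

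The 26 mitotic genes that edgeR did not call also had higher means in plasma-positive libraries. With the 5 called genes included, mean CPM was higher in plasma-positive libraries for 31 of 31 mitotic genes, where 54.8% of all genes with a count had a positive fitted change. The median fitted log2 change of the 31 was 3.82, or 2.42 when the 11 genes with at most 2 counts in every plasma-negative library are set at their lower bound, which for Kif11 lies below 0, against 0.09 for all genes with a count. The 4 plasma-positive libraries lay above the 4 plasma-negative ones for 11 of the 31, against 4.03% of all genes with a count. Members were picked with earlier results of these data in view, so these counts describe the list.

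Among the cyclins and their kinase, Ccna2, which encodes the cyclin of S phase and G2, was expressed in both groups. It had 7.70, 3.65, 10.4 and 5.72 CPM in plasma-negative and 12.8, 19.3, 28.0 and 15.8 CPM in plasma-positive libraries. The groups did not overlap, but its log2 change of 1.46 ± 0.47 (SE) did not pass (edgeR adjusted p = 0.168), and 12.5% of its exon length is shared with Exosc9. Cdk1, the kinase of mitotic entry, was nearly constant in plasma-positive libraries at 14.0, 14.4, 15.02 and 14.4 CPM. In plasma-negative libraries it was at most 0.336 CPM in replicates 1, 3 and 4 and 10.1 CPM in replicate 2. Its log2 change of 2.36 ± 1.12 (SE) was not called (adjusted p = 0.381), and without plasma-negative replicate 2 it was (edgeR adjusted p = 0.00893). Ccnb1, cyclin B1, did not pass the filter: it had 89 and 31 counts in plasma-positive replicates 3 and 4 and at most 1 in each of the other libraries.

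The 6 mitotic kinases were patchy, and none was called. Plk1, which acts from entry to cytokinesis, had 227 and 34 counts in plasma-positive replicates 3 and 4, 5 in plasma-negative replicate 3 and 0 in the other 5 libraries. Aurka, Aurora A of the spindle poles, reached 18.5 CPM in plasma-positive replicate 3, and plasma-negative replicate 2 at 7.74 CPM was above the remaining plasma-positive libraries. Its sign depended on replicate 3, with a log2 change of 0.63 with all libraries and -2.61 without it. Aurkb, Aurora B, had 33, 5, 0 and 23 counts in plasma-positive libraries and 8 in 1 plasma-negative library. Bub1 and Bub1b, of the spindle checkpoint, had 0 counts in all plasma-negative libraries; in plasma-positive ones Bub1 had 40, 5, 7 and 0 and Bub1b 1, 44, 43 and 2. Pbk, a mitotic kinase, had 5.39, 4.88, 3.96 and 0.223 CPM in plasma-positive libraries and was seen in 1 plasma-negative library at 0.873 CPM. Aurkb, Bub1, Bub1b and Plk1 did not pass the filter.

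At the kinetochore, Cenpa aside, Ndc80 and Spc25, which bind the kinetochore to microtubules, were present in all 4 plasma-positive libraries but also reached 6.11 and 6.17 CPM in 1 plasma-negative library each. Cenpe, a kinetochore motor, had 39, 11, 152 and 10 counts in plasma-positive libraries and 62 in plasma-negative replicate 1. Cenpf was highest in plasma-positive replicate 3 with 459 counts and had 0 in plasma-positive replicate 1 and 92 in plasma-negative replicate 1. Of the chromosomal passenger genes, Birc5 had 49, 5, 221 and 20 counts in plasma-positive and 10 in 1 plasma-negative library, and Cdca8 was seen in all 8 libraries, highest in plasma-positive replicate 3 at 13.9 CPM. Cdca8 changed sign without that library, from a log2 change of 0.88 to -0.99. Birc5 did not pass the filter, and of the others none was called by edgeR or DESeq2.

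Of the spindle genes besides Hmmr, Nusap1, a microtubule-bundling protein, had 0.110, 7.73, 10.3 and 3.02 CPM in plasma-positive libraries and between 0.466 and 2.14 CPM in plasma-negative ones. Kif11, the motor that keeps the spindle poles apart, had 45 counts in plasma-positive replicate 3 and 0 elsewhere. Tpx2, an activator of Aurora A, had 41 counts in plasma-positive replicate 1 and 1 in replicate 3. Kif11 and Tpx2 therefore rest on 1 library each, and not the same one.

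Of the 5 cytokinesis genes edgeR called 0 and DESeq2 called 2, Ect2 (DESeq2 adjusted p = 0.0282) and Kif20a (DESeq2 adjusted p = 0.0425), both higher, against 2.5% of tested genes. The groups did not overlap for 3 of the 5, as held for 5.68% of tested genes and 4.03% of all genes with a count. Ect2 and Racgap1 were at or near 0 in most plasma-negative libraries and could pass the filter only through plasma-positive ones. Neither of these 2 counts is therefore read further. Kif20a, a motor of the central spindle, had 4.16, 5.04, 1.92 and 4.04 CPM in plasma-negative and 18.2, 14.8, 9.85 and 7.82 CPM in plasma-positive libraries, without overlap. Its log2 change was 1.74 ± 0.55 (SE; edgeR adjusted p = 0.165), and 29.3% of its exon length is shared with Cdc23. Ect2, which activates RhoA at the division plane, had 2.20, 1.47, 4.42 and 4.02 CPM in plasma-positive libraries and at most 0.310 CPM in plasma-negative ones (log2 change 4.47 ± 1.26 SE; edgeR adjusted p = 0.119). Racgap1, its partner, had 9.35, 4.52, 13.9 and 4.13 CPM against 3.84 CPM in plasma-negative replicate 3 and 0 in the other 3 (edgeR adjusted p = 0.432). Without that library it was called (edgeR adjusted p = 0.0387). Kif23 and Prc1, of the central spindle, were seen in 3 of 4 plasma-positive libraries each and had at most 21 and 6 counts in plasma-negative ones.

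Ube2c, the ubiquitin-conjugating enzyme that works with the anaphase-promoting complex, had 0 counts in every plasma-negative library. It had 56, 0, 331 and 28 counts in plasma-positive ones and did not pass the filter. In the fit of all 8 libraries with no filter it was not called (edgeR adjusted p = 0.0698). Without plasma-positive replicate 2, which held 0 counts of it, it passed the filter and was called higher (edgeR adjusted p = 0.0491). Of its exon length 22.8% is shared with Tnnc2. Mki67, the gene of the proliferation marker Ki-67, had 49 and 63 counts in plasma-positive replicates 3 and 4, 0 in replicates 1 and 2, and 23 in plasma-negative replicate 1. Cdca3, which promotes mitotic entry, had 86, 270 and 56 counts in plasma-positive replicates 2 to 4, 0 in replicate 1 and 27 in 1 plasma-negative library (edgeR adjusted p = 0.379).

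Plasma-positive libraries thus differed in which mitotic genes they held. Replicate 3 was the highest library for 22 of the 31 mitotic genes and replicate 1 for 6. At least 3 counts were reached in all 4 plasma-positive libraries by 15 of the 31, in 3 by 9, in 2 by 5 and in 1 by 2. In plasma-negative libraries 3 genes, Ccna2, Cdca8 and Kif20a, reached 3 counts in all 4, and 11 in none. Per library, 21, 23, 29 and 26 of the 31 had at least 3 counts in plasma-positive replicates 1 to 4, and 11, 7, 15 and 6 in plasma-negative ones. After all libraries were thinned to the total of the shallowest, the numbers were 21, 17, 28 and 23 against 8, 7, 7 and 6, still without overlap.

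The replication genes were expressed in both groups, and 0 of the 12 were called by edgeR or DESeq2. At an unadjusted p under 0.05 edgeR gave 2, Mcm3 and Pcna, both higher, against 7.13% of tested genes. Mcm3, a helicase subunit and the replication gene with the highest level per exon length, averaged 10.1 RPKM (reads relative to exon length and library total) in plasma-negative and 17.7 RPKM in plasma-positive libraries. It stood at 54.3, 70.7, 55.2 and 28.6 CPM in plasma-negative and 83.1, 93.3, 85.9 and 70.4 CPM in plasma-positive libraries. The groups nearly separated, with plasma-negative replicate 2 just above plasma-positive replicate 4. Its log2 change of 0.66 ± 0.25 (SE) did not pass (edgeR adjusted p = 0.249).

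Pcna, the sliding clamp, was the only 1 of the 12 whose plasma-positive libraries all lay above the plasma-negative ones, as held for 5.68% of tested genes, with 17.1, 12.3, 18.7 and 19.5 CPM in plasma-negative and 38.9, 25.2, 26.7 and 21.3 CPM in plasma-positive libraries. Its log2 change was 0.73 ± 0.32 (SE; edgeR adjusted p = 0.329). Gins2, a subunit of the GINS complex of the helicase, ranged from 9.08 to 47.1 CPM in plasma-negative and from 26.5 to 41.1 CPM in plasma-positive libraries (log2 change 0.47 ± 0.46 SE; edgeR adjusted p = 0.731). Its value is uncertain, since 67.3% of its exon length is shared with Gse1.

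None of the other helicase subunits was called. Mcm5 had 6.597, 17.7, 10.2 and 9.42 CPM in plasma-negative and 16.6, 13.6, 16.95 and 21.3 CPM in plasma-positive libraries (edgeR adjusted p = 0.553). Mcm6 ranged from 9.96 to 33.0 CPM and from 9.68 to 54.6 CPM, and Mcm2 from 4.15 to 30.6 CPM and from 7.71 to 28.8 CPM. The log2 changes of Mcm2, Mcm4, Mcm6 and Mcm7 were between 0.10 and 0.29, and each of the 4 turned negative when certain single libraries were left out.

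Among the genes of nucleotide supply, the subunits of ribonucleotide reductase, Rrm1 and Rrm2, had different patterns across libraries. Rrm1 was present in all 8 libraries, at 6.86 to 34.3 CPM in plasma-negative and 11.95 to 47.0 CPM in plasma-positive ones. Rrm2, the subunit made in S phase, had 0 counts in plasma-negative replicates 1 to 3 and 26 in replicate 4, and 113, 184, 264 and 4 counts in plasma-positive libraries. With all libraries it was not called (log2 change 2.20 ± 1.81 SE; edgeR adjusted p = 0.665), and without plasma-negative replicate 4 it was (edgeR adjusted p = 0.0417). Tyms, thymidylate synthase, had a log2 change of 0.29 ± 0.35 (SE). Tk1, thymidine kinase, was the only member whose fitted change was negative, at -0.98 ± 0.84 on the log2 scale (SE; edgeR adjusted p = 0.686), with 14.3, 4.78, 6.81 and 8.75 CPM against 4.62, 0.305, 9.34 and 3.24 CPM.

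**Figure D3:**
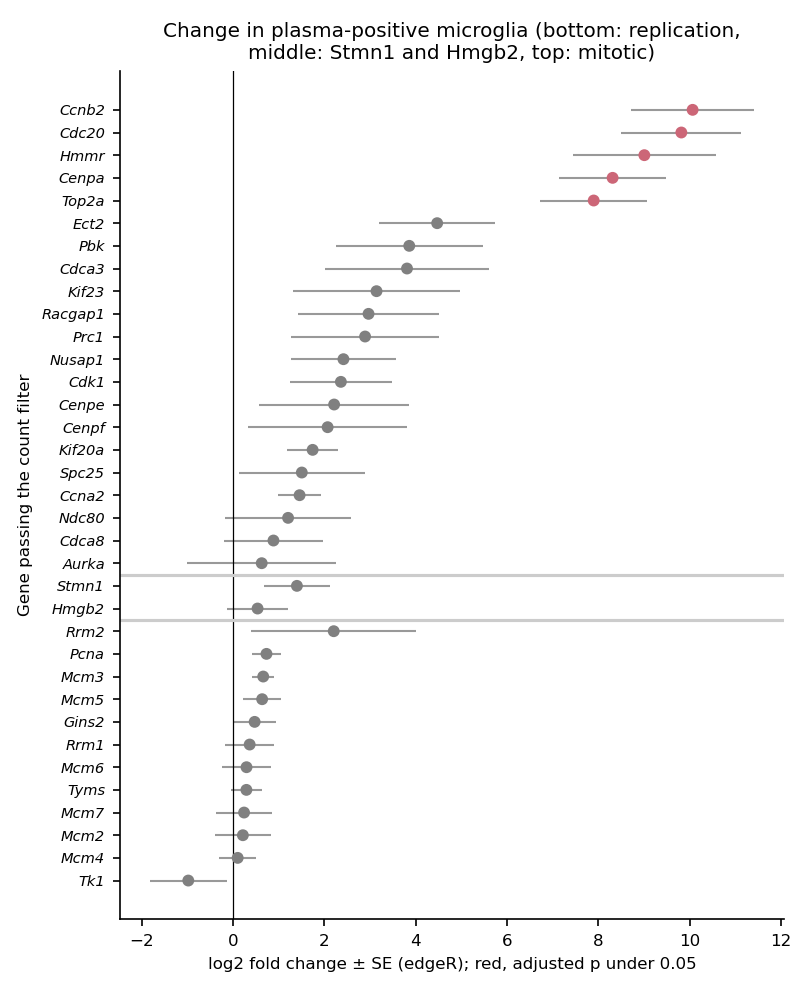
Fitted log2 change between plasma-positive and plasma-negative libraries for the 35 tested members, with standard errors; red marks the 5 called genes, whose fitted values near 8 to 10 depend on plasma-negative counts at or near 0 and are not fold changes. Replication genes lie close to 0, apart from Rrm2 and Tk1, and the mitotic genes extend to the right.

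Summed over each class, the ratio between the groups was larger for the mitotic genes than for the replication genes. The 31 mitotic genes together had 28.6, 38.3, 27.7 and 21.2 CPM in plasma-negative and 132, 122, 298 and 134 CPM in plasma-positive libraries, with means of 28.9 ± 7.04 and 171 ± 84.4 CPM (SD, n = 4). The difference of the mean log2 sums, called the log2 ratio here, was 2.49, with a pooled SD between libraries of 0.49. The 12 replication genes together had 188, 240, 254 and 214 CPM in plasma-negative and 288, 367, 304 and 265 CPM in plasma-positive libraries, with means of 224 ± 29.3 and 306 ± 43.7 CPM (SD, n = 4). Their log2 ratio was 0.45, with a pooled SD of 0.20. Neither sum overlapped between the groups. Without plasma-positive replicate 3 the ratios were 2.19 and 0.45.

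Set against the replication genes of the same library, the mitotic genes stood at 11.6%, 18.0%, 12.2% and 9.91% of the summed replication RPKM in plasma-negative libraries. In plasma-positive libraries the share was 47.7%, 37.5%, 110% and 55.6%, again without overlap. Both sums of a library share its depth and scaling, so the scaling factors cancel in this share. No test is given for these sums, because the genes in them were chosen with results known, and the difference between the classes was not tested.

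**Figure D4:**
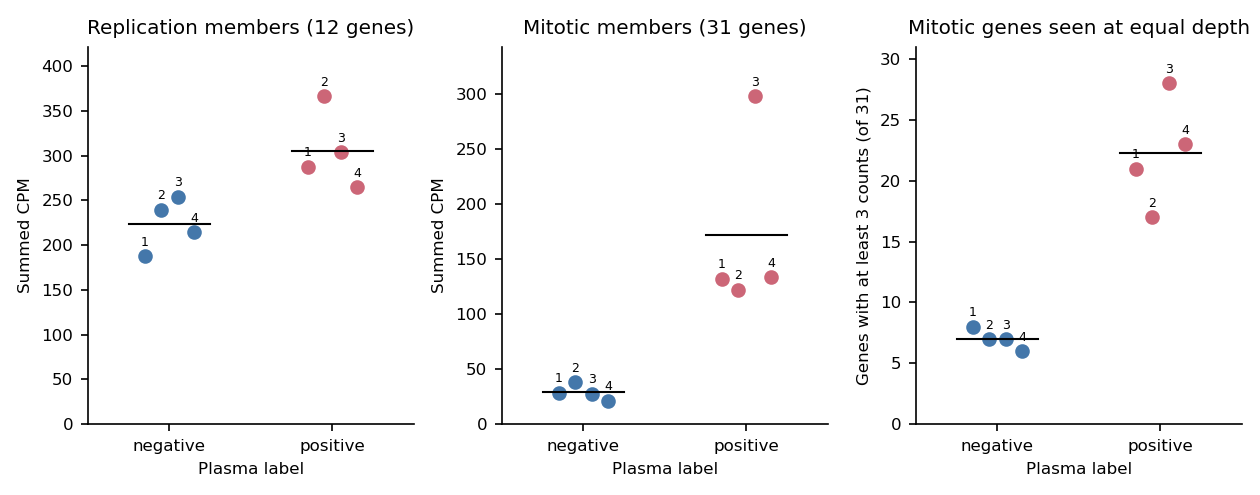
Summed CPM of the 12 replication genes (left) and of the 31 mitotic genes (middle), and the number of mitotic genes with at least 3 counts after thinning all libraries to the smallest total (right); points are libraries numbered by replicate and lines are group means. Plasma-positive libraries lie above plasma-negative ones in each panel, with the widest gap in the middle and right panels.

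By role, the 2 genes of proteolysis, Cdc20 and Ube2c, summed to 0 counts in plasma-negative and to 10.8, 6.76, 27.8 and 11.7 CPM in plasma-positive libraries. The 4 genes of cyclins and Cdk1 summed to between 6.06 and 13.8 CPM and to between 32.5 and 66.3 CPM, and the 5 genes of cytokinesis to between 4.47 and 7.34 CPM and to between 18.2 and 40.8 CPM. The 6 kinases overlapped, at 0.0443 to 7.74 CPM against 7.68 to 36.5 CPM, as did the 2 passenger genes. Plasma-positive replicate 3 was the highest library in every mitotic role.

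Stmn1 and Hmgb2, neither of which is confined to dividing cells, were not called. Stmn1, a microtubule-destabilizing protein, had 1.55, 2.14, 3.43 and 2.02 CPM in plasma-negative and 3.63, 7.07, 9.34 and 4.13 CPM in plasma-positive libraries, without overlap (log2 change 1.40 ± 0.72 SE; edgeR adjusted p = 0.429). Hmgb2, a chromatin protein, overlapped between groups, with means of 3.83 ± 1.32 and 5.60 ± 1.98 CPM (SD, n = 4).

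Other genes of the cell cycle were read from 4 lists. Of 51 further replication genes 44 were tested, and of 61 further mitosis genes 29 were tested; edgeR called 0 in either direction, and the median log2 change was 0.19 in both lists, against 0.01 for all tested genes. At an unadjusted p under 0.05 each list had 2 genes higher and 1 lower in edgeR, against 7.13% of tested genes higher and 6.67% lower. DESeq2 called 1 replication gene higher and 0 mitosis genes, against 2.5% of tested genes higher. The filter left out many further mitosis genes that were near 0 in plasma-negative libraries: of the 30 with counts that were not tested, 20 had 0 counts in every plasma-negative library. With no filter, 44 of the 59 further mitosis genes with a count had a positive fitted change, with a median log2 change of 1.35, or 0.32 with the genes below 3 counts in every plasma-negative library at their lower bound. Of these 59, edgeR called 0. At an unadjusted p under 0.05, 18 were higher and 2 lower, against 8.92% higher and 5.8% lower of genes with a count. In 4 of the 59, the plasma-positive libraries were all above the plasma-negative ones, against 4.03% of genes with a count. At least 3 counts were found for 31, 28, 28 and 24 of the 61 in plasma-negative and 42, 34, 49 and 38 in plasma-positive libraries, and after thinning for 24, 26, 24 and 24 against 34, 30, 46 and 33. Anln, an actin-binding protein of the cleavage furrow named after its values were seen, had 0 counts in plasma-negative libraries and 7 to 23 in plasma-positive ones. With no filter the further replication genes had a median of 0.37, or 0.27 with bounds.

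The genes with the highest CPM in these lists, Mcmbp and Rfc2 of replication and Bub3 and Hjurp of mitosis, had log2 changes of 0.06, 0.22, 0.11 and -0.72. Of 31 genes of G1 and cell cycle transcription, 23 were tested, with 0 called higher and 1 lower, and of 27 inhibitors of the cycle 24 were tested, with 0 higher and 1 lower. At an unadjusted p under 0.05, edgeR gave 3 G1 genes higher and 1 lower and 2 inhibitors higher and 2 lower, against 7.13% of tested genes higher and 6.67% lower. DESeq2 called 0 G1 genes higher and 1 lower, and 1 inhibitor higher and 1 lower, against 2.5% of tested genes higher and 2.73% lower.

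The inhibitor that fell was Cdkn1a, which encodes p21, a protein that holds cyclin-dependent kinases inactive. Plasma-negative libraries had 70.5, 97.1, 77.3 and 76.4 CPM and plasma-positive ones 31.8, 37.8, 45.7 and 38.0 CPM. The lowest plasma-negative library was well above the highest plasma-positive one, and the log2 change was -1.07 ± 0.20 (SE; edgeR adjusted p = 0.0235). The call held in 3 of the 8 fits that left out 1 library, with an adjusted p of up to 0.0799 in the others (edgeR), and 7.68% of its exon length is shared with another gene.

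The G1 gene that fell was Cdk6, a kinase that works with D-type cyclins. It had 230, 231, 205 and 209 CPM in plasma-negative and 132, 166, 136 and 133 CPM in plasma-positive libraries (log2 change -0.63 ± 0.12 SE; edgeR adjusted p = 0.0298). Cdk6 has a long transcript, with 13989 bases of exon, and when the dependence of levels on exon length was corrected in each library its log2 change was -0.26 (edgeR adjusted p = 0.473). Its call held in 2 of the 8 fits that left out 1 library. Its paralogue Cdk4 was not called, at 163 to 180 CPM against 195 to 210 CPM (log2 change 0.28 ± 0.11 SE; edgeR adjusted p = 0.266), nor was their cyclin Ccnd1, at 238 to 270 CPM against 169 to 254 CPM (edgeR adjusted p = 0.432). The antiproliferative genes Btg1 and Btg2, the inhibitors with the highest levels, had log2 changes of 0.11 and -0.11. Wee1, an inhibitor of Cdk1 named after its values were seen, had at most 1 count in any plasma-negative library and between 7 and 101 in plasma-positive ones (edgeR adjusted p = 0.0583).

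**Figure D5:**
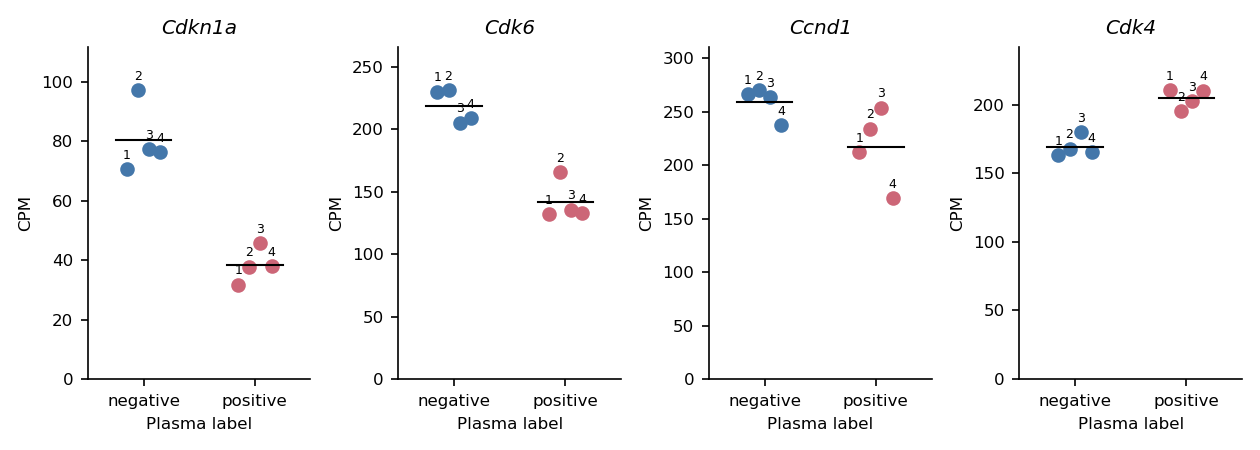
CPM of Cdkn1a, Cdk6, Ccnd1 and Cdk4 in each library; points are libraries numbered by replicate, lines are group means, and each panel starts at 0. Cdkn1a and Cdk6 are lower in all 4 plasma-positive libraries, Cdk4 is higher in all 4 without passing the test, and Ccnd1 overlaps.

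Total counts ranged from 2963094 to 21422738 per library. All 10 microglial markers were present in every library, with a sum of 67573 to 81248 CPM. Markers of other cells were higher in several plasma-positive libraries. A list of 10 monocyte and neutrophil genes summed to 1008 CPM in plasma-positive replicate 3, the library highest in mitotic genes, and to at most 13.8 CPM in each other library; in replicate 3 its genes Ngp, S100a8 and S100a9 had 8481, 5908 and 3365 counts and the neutrophil gene Ly6g had 0. The oligodendrocyte list summed to 315, 569, 282 and 224 CPM in plasma-positive libraries and to 158 to 230 CPM in plasma-negative ones. Lists of oligodendrocyte precursor and neuron genes summed to 15.5 and 99.8 CPM in plasma-positive replicate 1 and to 17.3 and 370 CPM in replicate 2, against at most 5.84 and 41.0 CPM in any plasma-negative library. The erythroid list summed to 13.5, 15.5, 8.63 and 2.57 CPM in plasma-positive libraries and to at most 6.69 CPM in plasma-negative ones. In plasma-positive replicate 4 the monocyte and neutrophil, precursor, neuron, oligodendrocyte and erythroid lists lay within the plasma-negative range. In that library the lymphocyte list was the highest of all 8, at 94.5 CPM against 30.1 to 85.0 CPM in plasma-negative libraries, with Cd79b the only 1 of its 9 genes above 0. In plasma-positive replicates 1 and 2 and plasma-negative replicates 2 to 4, 8 of the 9 lymphocyte genes were likewise at 0. Mrc1, a marker of border macrophages, stood at 1.76, 12.1, 1.42 and 15.3 CPM in plasma-positive libraries and at most 2.36 CPM in plasma-negative ones. The astrocyte, endothelial and border macrophage lists overlapped between the groups. Without plasma-positive replicates 2 and 3 the mitotic log2 ratio was 2.23, while 0 members were called, against 0.0775% of tested genes called higher (edgeR, 15 genes in all). This fit keeps plasma-positive replicate 1, whose precursor list at 15.5 CPM and erythroid list at 13.5 CPM lay above the plasma-negative range. In that fit 8 members were higher at an unadjusted p under 0.05 in edgeR, against 4.38% of tested genes. All 8 were mitotic genes. Those near 0 in plasma-negative libraries could pass the filter only through plasma-positive ones, so this count is not read further. The part of these markers in the mitotic values was not tested further. Gene counts made up 81.4% to 84.2% of the total behind the deposited RPKM values in plasma-positive libraries and 68.9% to 74.6% in plasma-negative ones, and the part of this difference in the results was not tested.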

How the data were processed

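Bulk Smart-seq2 libraries were analysed from 2 deposited tables, which the authors made with bcl2fastq, Trim Galore, STAR and HTSeq on build mm10, per the submitters' processing notes; versions, roles and the use of strand are not given in the sources used here. The deposited counts are whole-number read counts per gene, restricted to top hits according to the column headers, and the deposited RPKM values are the authors' reads scaled to exon length and library size. Each library's group and number come from its title.

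The test was that of edgeR 4.0.16 (R 4.3.3; TMM factors, the default filter by expression, quasi-likelihood F test of group, Benjamini-Hochberg over all 13277 tested genes, adjusted p under 0.05); standard errors were taken from the log2 change and F. The script was tested on simulated data. The members and lists were chosen with earlier results of these data known. Every member may be named; of each further list, up to 4 called genes with the smallest p and the 2 with the highest CPM are named. Anln and Wee1 fall outside this rule and were named after their values were seen. A gene below 3 counts was taken as not detected; this limit allows for counting error alone, and amplified reads are not independent molecules. Exon lengths and overlaps are from GENCODE M21 (GRCm38), where all 45 members have the same span as in the tables. Alternatives were other scalings and filters, DESeq2 1.42.0, limma 3.58.1 on counts and on RPKM values, thinning, a loess fit on exon length in each library, used as a correction (span 0.3), the replicate number as a block, a threshold of 0.1 and leaving out each library; leaving out plasma-positive replicates 2 and 3 together and leaving out members with over 5% exon overlap were chosen after seeing the data.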

Additional observations from a re-analysis of the deposited data

Results flagged for a closer look

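In 39 groups of 4 libraries checked for a library far from the other 3, 5 were found, and chance gives about 5% of such groups. In plasma-positive replicate 3, Ccnb2 stood at 18.8 CPM, where the next library had 6.26 CPM, and the summed mitotic genes stood at 298 CPM, where the next library had 134 CPM. In plasma-negative replicate 3, Cenpa at 0.0582 CPM and Top2a at 0.116 CPM rest on 1 and 2 counts, where the other 3 libraries had 0. Any count set against 0 in the other 3 libraries is flagged by this check. The rate of 5% therefore does not apply to such groups, and these 2 flags are not read further. In plasma-positive replicate 2, Cdk6 stood at 166 CPM, where the next library had 136 CPM.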

How the results depend on the processing

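The summed mitotic log2 ratio was 2.49 and lay between 2.19 and 2.82 under the alternatives run for these sums. The replication ratio was 0.45 and lay between 0.31 and 0.64. The number of genes called, 187, became 694 with DESeq2, 447 and 432 with limma on log2(RPKM + 1) and log2(RPKM + 0.1), 407 at a threshold of 0.1, 69 with the exon length correction, 15 without plasma-positive replicates 2 and 3, and 66 to 203 when single libraries were left out. The number of members called, 5, became 0 without plasma-positive replicates 2 and 3 and 3 to 6 when single libraries were left out; it was 4 to 7 under the other alternatives without a block, and 5 without the members that overlap another gene. Libraries with the same replicate number deviated together no more than a mean correlation across genes of 0.0165, so the numbers do not show a pairing, and 1 of the 4 plasma-negative libraries correlated best with its own number. With the replicate block 74 genes and 2 members, Cenpa and Top2a, were called, against 0.392% of tested genes called higher. With the exon length correction that share was 0.324%. With the exon length correction and the replicate block 10 genes and 0 members were called. In that last fit 16 members were higher at an unadjusted p under 0.05 in edgeR, against 4.78% of tested genes. Of these members 14 were mitotic. Mitotic genes near 0 in plasma-negative libraries could pass the filter only through plasma-positive ones, so this count is not read further. Scaling by library totals alone gave 64 genes higher and 163 lower, against 112 and 75, and moved the median log2 change of all tested genes to -0.11; limma on log2(RPKM + 1) gave 388 and 59 with a median of 0.11, limma on log2(RPKM + 0.1) 370 and 62 with 0.16, and DESeq2 332 and 362. Of 751 values of single members under alternatives, 690 kept direction and side of the threshold, 25 lost a call, 6 gained one and 30 changed sign.

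Sign changes were limited to genes with small or uneven changes, and their cause was not tested. When single libraries were left out, log2 changes ranged from -0.12 to 0.82 for Mcm2, -0.14 to 0.24 for Mcm4, -0.42 to 0.59 for Mcm6, -0.27 to 0.77 for Mcm7, -0.0368 to 0.67 for Rrm1, -2.61 to 1.54 for Aurka, -0.99 to 1.27 for Cdca8 and -0.0197 to 0.25 for Mcmbp. Without plasma-positive replicates 2 and 3 they were -0.12 for Mcm2, -0.0194 for Mcm4, -0.31 for Mcm6, -0.18 for Mcm7, -0.56 for Rrm1, -2.04 for Aurka, -1.25 for Cdca8 and -0.0649 for Mcmbp. With the exon length correction Mcm4 was at -0.0538, and with that correction and the replicate block Mcm4 was at -0.10, Mcm6 at -0.0147, Aurka at -1.36 and Cdca8 at -0.12. With the replicate block alone Aurka was at -1.21 and Cdca8 at -0.0751, with limma-voom they were at -1.13 and -0.12, and with limma on log2(RPKM + 0.1) Aurka was at -0.57. Scaling by totals alone gave -0.0115 for Mcm4, -0.00261 for Btg1, -0.0128 for Bub3 and -0.0464 for Mcmbp, and Btg2 was at 0.0156 with limma on log2(RPKM + 1) and 0.0157 on log2(RPKM + 0.1). In plasma-negative replicate 4, the shallowest library, 3 counts equal 1.01 CPM, and a mitotic gene below that level was not detectable there.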

Other observations

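The make-up of each class also differed by library. Mcm3 was the highest replication gene by CPM in 7 of 8 libraries, with 21.7% to 29.5% of the summed replication CPM, and in plasma-negative replicate 4 it was Rrm1, with 16.0%. Among mitotic genes, 1 gene took a large part of the sum in each plasma-negative library: Ccna2 with 26.9%, 37.7% and 27.0% in replicates 1, 3 and 4, and Cdk1 with 26.5% in replicate 2. In plasma-positive libraries the highest mitotic gene took 13.7% in replicate 1, where it was Kif20a, and 15.8%, 9.41% and 11.8% in replicates 2 to 4, where it was Ccna2.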
